A study of Mus musculus with 8 samples.

Results

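Microglia from A20 cKO mice 1 day after sciatic nerve transection were compared with microglia from naive A20 cKO mice. Microglia are macrophages that live in the brain and spinal cord. Both groups were C57BL/6 mice of the genotype Cx3cr1-yfp-creER/+; Tnfaip3 fl/fl, in which 1 Cx3cr1 allele carries YFP and a tamoxifen-inducible Cre and both Tnfaip3 alleles are floxed. Per the study's methods all animals received tamoxifen and were used as young adults of both sexes, and lumbar cords of 3 animals per group were pooled before YFP+ cells were sorted. Per the labels the sciatic nerves were cut on both sides. The Cre therefore acts in any cell that expresses Cx3cr1, and the naive animals carried the same alleles and drug. Each group was 1 library of single-cell RNA counts from the 10x Genomics 3′ chemistry, in which every captured RNA molecule receives the barcode of its cell and a unique molecular identifier, or UMI. Barcodes with at least 1000 UMIs, at least 500 genes and at most 10% mitochondrial UMIs were kept. This left 886 of 930 cells on day 1 and 2922 of 2980 in naive, which is 3808 of the 14626 kept cells of all 8 libraries. Control libraries of the genotype Cx3cr1-yfp-creER/+ and the A20 cKO libraries of days 2 and 3 are used only for values set side by side.

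Tnfaip3 encodes A20, a ubiquitin-editing enzyme that is known as a brake on NF-kB signalling downstream of the TNF receptor and Toll-like receptors. Cutting a peripheral nerve cuts the axons of motor neurons and the peripheral axons of sensory neurons, and microglia in the lumbar cord respond with chemokine release, a shift away from their resting gene programme and cell division. Immediate-early genes such as those of the FOS, JUN and EGR families are transcribed within minutes of many stimuli without new protein synthesis, and their transcripts are short-lived. Entry into the cell cycle is preceded by growth, for which ribosomes and nucleotides are made, and then by expression of the replication machinery.

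Levels are UMIs of a gene summed over the kept cells of a library and scaled to 1000000 UMIs per library (CPM). Ratios are log2 of day 1 over naive, with 0.5 UMIs added to each sum. There was 1 library a side, so no test was possible and no p-value is given. The 95% intervals in parentheses are exact intervals for counts (Poisson for levels, conditional binomial for ratios, Clopper-Pearson for shares of cells). They cover counting error only and not the spread between animals or preparations. A gene is called higher or lower where it passes a fold of 2 or, for gene lists, of 1.5. The kept cells held 3028418 UMIs on day 1 and 8919100 in naive, with medians of 3107.5 and 2824 UMIs per cell. The median mitochondrial share was 1.28% and 1.16%, and genes of ribosomal proteins took 11.2% and 9.62% of the UMIs.

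Some barcodes occurred in several libraries. Day 1 shared 32 barcodes with naive, 44 with A20 cKO day 2, 18 with A20 cKO day 3 and 37 with control day 3. With each of the other 3 control libraries it shared 5 to 8. These counts grow with library size. Per 1000000 pairs of barcodes they were 11.5, 67.6, 33.4 and 18.3 in the same order. The values were 8.83 for control naive and 1.94 and 2.40 for control days 1 and 2. Of the kept cells, 62 (6.998%) on day 1 and 58 (1.98%) in naive had a barcode found in another library, and these held 10.1% and 1.77% of the UMIs. Ratios without these cells are given for genes described below that then no longer passed a fold of 1.5, for mitotic genes whose sign turned and for genes of which 1 barcode held much. Both libraries held the microglial genes at high levels, since Tmem119 had 2322 CPM in naive and 1929.7 on day 1. Markers of other types were low beside these. The largest sums were those of 8 astrocyte markers, with 399 CPM in naive and 308 on day 1, and of 7 choroid plexus and ependymal markers, with 129.6 and 408, which were led by Ttr. Most of the astrocyte sum was Slc1a3, with 380 CPM in naive and 284 on day 1. Slc1a3 was found in 63.96% and 53.8% of the kept cells, whereas the astrocyte marker Gfap had 2.58 and 4.62 CPM. Summed over 8 oligodendrocyte markers the level was 221 CPM in naive and 271 on day 1, over 6 monocyte markers 40.4 and 36.7, over 6 neutrophil markers 45.5 and 54.8, over 7 endothelial markers 40.6 and 65.4, and over 9 neuronal markers 5.49 and 13.2. Most of the neuronal sum on day 1 was Snap25, with 1.23 CPM in naive and 7.59 on day 1. In each library 1 barcode held most Snap25 UMIs, 90.9% in naive and 78.3% on day 1. Of 6 markers of perivascular macrophages 3 were at 0 in naive and 2 on day 1, and Cd163 was at 0 in both. The part of RNA from other cells in the results was not tested.

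Of 8919 genes whose 2 sums together reached 100 UMIs, 139 were at least 2-fold higher on day 1 (1.56% of the genes tested) and 124 at least 2-fold lower (1.39%). At a fold of 1.5, 628 were higher (7.04%) and 472 lower (5.29%). The median gene differed by 0.039 log2, and 82.7% of genes lay within 0.5 log2 of 0. The lower genes were led by immediate-early transcription factors and the higher genes by chemokines and genes of ribosome assembly and DNA replication. The lower side reached further, to −5.92 for Fosb, than the higher side, where the most extreme value was 2.96 for Il1rn.

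**Figure D1:**
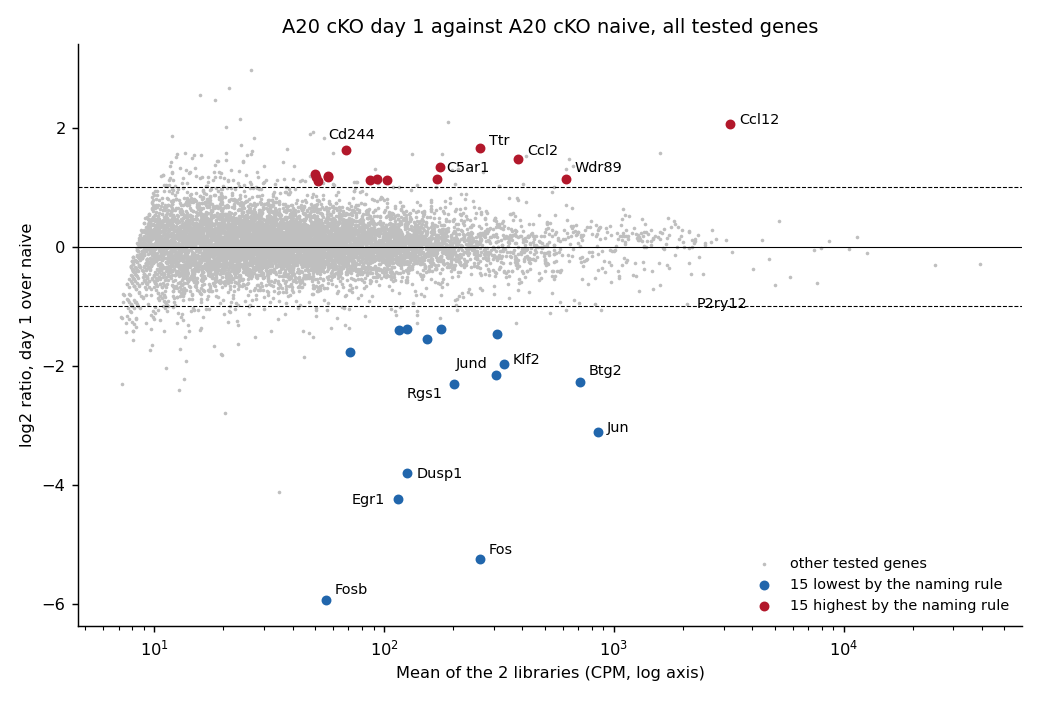
Each point is 1 of 8919 tested genes, with the mean level of both libraries in CPM on a log axis against the log2 ratio of day 1 over naive, and dashed lines mark a fold of 2. Blue and red points are the 15 lowest and 15 highest genes whose mean level reached 50 CPM. Fosb, Fos, Egr1 and Dusp1 are the 4 lowest blue points and Ccl12 is the highest red one.

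The genes of AP-1, the transcription factor made of FOS and JUN family proteins, were mostly lower on day 1. Of 9 measured members of the list, 7 were at least 1.5-fold lower and 1 was higher, and the median log2 ratio was −0.94. Fos (ENSMUSG00000021250, chromosome 12, 85473890 to 85477273, plus strand, GRCm38), the prototype of the family, had 508 CPM (493 to 523) in naive and 13.2 (9.44 to 17.99) on day 1, a log2 ratio of −5.25 (−5.75 to −4.82). The 2 libraries were thus 37.96-fold apart in Fos. Its relative Fosb had 110.2 CPM (103 to 117) in naive and 1.65 (0.536 to 3.85) on day 1, which is 60.7-fold lower on 5 UMIs. Jun, the main partner of FOS proteins, had 1527 CPM (1501 to 1553) in naive and 177 (163 to 193) on day 1 (log2 ratio −3.10, −3.23 to −2.98). Jund had 500.4 CPM in naive and 112 on day 1 (log2 ratio −2.15), and Junb had 927 CPM in naive and 484 on day 1 (−0.94). The difference was therefore uneven within the JUN family and smallest for Junb. Atf3, a stress-induced member, had 28.6 CPM in naive and 18.2 on day 1 (−0.64). Fosl2 was level at a log2 ratio of 0.032, and Batf, a partner of JUN proteins in immune cells, was the exception with 9.64 CPM in naive and 18.2 on day 1. Fosl1 and Maff did not reach the UMI minimum. Without the shared barcodes the ratio of Fos was −6.13, that of Fosb −7.63 and that of Jun −3.16, while Mafk, also counted as lower, moved from −0.60 to −0.54.

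Most measured genes of a list of EGR, NR4A, KLF and other early response genes went the same way. The others include Ier2, Btg2 and Rhob, and no NR4A gene was among the measured members. Of 11 measured members 8 were at least 1.5-fold lower and 1 was higher, with a median log2 ratio of −0.97. Egr1, a zinc-finger transcription factor induced through the MAP kinase pathway, had 219 CPM (209.8 to 229) in naive and 11.6 (8.05 to 16.1) on day 1 (log2 ratio −4.23, −4.77 to −3.77). Btg2, an antiproliferative gene that is induced together with it, had 1179.6 CPM (1157 to 1202) in naive and 245 (228 to 263) on day 1 and was 4.81-fold lower. Klf2, a factor known for holding leukocytes in a quiescent state, had 528 CPM (513 to 543) in naive and 135 (122 to 148) on day 1 (log2 ratio −1.97, −2.12 to −1.82). Its relative Klf4 had 62.1 CPM in naive and 32.4 on day 1, whereas Klf6 differed by only −0.38 log2. Ier2 had 230.4 CPM in naive and 78.6 on day 1, Ier5 had 324 CPM in naive and 200.4 on day 1 and Rhob, a small GTPase gene with early-response kinetics, had 842 CPM in naive and 402 on day 1. In contrast Ier3, which encodes an inhibitor of cell death, was higher with 18.1 CPM in naive and 35.7 on day 1 (log2 ratio 0.98, 0.62 to 1.34). The NR4A genes Nr4a1, Nr4a2 and Nr4a3 did not reach the UMI minimum in these libraries.

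Genes that shut such signalling off were lower as well. Among 12 measured feedback and mRNA decay genes 6 were at least 1.5-fold lower and 1 was higher, and the median log2 ratio was −0.56. Dusp1, the nuclear phosphatase that inactivates the p38 and JNK kinases, had 236 CPM (226 to 246) in naive and 16.8 (12.5 to 22.1) on day 1 (log2 ratio −3.79, −4.24 to −3.41). Dusp6, its cytoplasmic relative for ERK, had 766 CPM in naive and 401 on day 1. The 3 genes of the tristetraprolin family, which bind AU-rich elements and promote decay of cytokine mRNAs, were all lower: Zfp36 had 182 CPM in naive and 70.0 on day 1, Zfp36l1 474 CPM in naive and 288 on day 1 and Zfp36l2 474 CPM in naive and 314 on day 1. Zfp36l2 no longer passed 1.5-fold without the shared barcodes (log2 ratio −0.55), and the ratio of Dusp1 was then −4.37. Ppp1r15a, a regulator of translation under stress, had 94.4 CPM in naive and 45.9 on day 1. Pim1, a kinase gene induced by cytokines, was 2.01-fold higher (18.4 CPM in naive and 36.98 on day 1), and Socs3, the cytokine-receptor inhibitor, had 105 CPM in naive and 155 on day 1 (log2 ratio 0.56). A list of glucocorticoid-responsive genes shares Dusp1, Nfkbia and Per1 with the feedback list, of which Per1, a circadian clock gene, had 38.5 CPM in naive and 49.5 on day 1 (log2 ratio 0.37). Of its 11 measured members 5 were lower at a fold of 1.5 and 0 higher, with a median of −0.53. Besides Dusp1 these were Tsc22d3, which encodes the glucocorticoid-induced leucine zipper, with 456 CPM in naive and 166 on day 1, the mTORC1 inhibitor gene Ddit4 with 256 CPM in naive and 98.7 on day 1, the kinase gene Sgk1 with 720.0 CPM in naive and 334 on day 1 and Sult1a1, a sulfotransferase gene, with 156 CPM in naive and 70.3 on day 1. Fkbp5, the best-known target of the receptor, differed by −0.21 log2 (−0.33 to −0.10).

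Among the 15 lowest abundant genes 3 belonged to none of these lists. Rgs1, which encodes a regulator of G protein signalling that dampens chemokine receptors, had 334 CPM in naive and 67.7 on day 1 (log2 ratio −2.30, −2.52 to −2.1). The linker histone gene Hist1h1c had 109.9 CPM in naive and 32.03 on day 1 (−1.77, −2.09 to −1.48). The transcription factor gene Sox4 had 169 CPM in naive and 64.1 on day 1 (−1.39, −1.62 to −1.18).

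The upstream sequences of Fos and Dusp1 are shown because both stood among the 4 lowest genes whose mean level reached 50 CPM and their promoters are textbook targets of CREB and ATF proteins, which bind the cAMP response element. The 250 bases before the annotated start are from RefSeq (GRCm38.p6), read 5′ to 3′ on the strand of the gene, with each TGACGT on either strand in capitals. The Fos window is chr12:85473640-85473889, plus strand, and that of Dusp1 is chr17:26508473-26508722, minus strand.
Fos: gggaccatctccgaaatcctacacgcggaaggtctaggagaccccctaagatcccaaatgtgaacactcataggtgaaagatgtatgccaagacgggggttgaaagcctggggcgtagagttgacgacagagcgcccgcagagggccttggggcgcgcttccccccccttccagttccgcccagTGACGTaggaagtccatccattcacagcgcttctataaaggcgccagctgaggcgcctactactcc
Dusp1: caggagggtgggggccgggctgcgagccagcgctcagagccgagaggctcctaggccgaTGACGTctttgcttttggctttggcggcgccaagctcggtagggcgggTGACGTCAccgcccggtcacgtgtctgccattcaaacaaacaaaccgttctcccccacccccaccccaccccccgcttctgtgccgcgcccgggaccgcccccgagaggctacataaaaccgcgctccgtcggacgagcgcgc
Fos held 1 match, which began 66 bases before the start. Dusp1 held 3, which began 191, 143 and 141 bases before it. The last 2 of these are the strands of 1 palindrome. Over all 32851 RefSeq promoter windows of this length 6.47% held TGACGT on either strand. Of 45 windows of the immediate-early and feedback genes 13 held it (28.9%), as did 7 of 37 of the ribosome biogenesis list (18.9%), whose genes were higher on day 1. A match is a run of letters, and binding was not measured.

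The lower level was spread over the cells. To compare cells at one depth, each was thinned at random to 2000 UMIs, which kept 830 cells on day 1 and 2612 in naive and left out 56 and 310 shallower ones. A Fos UMI was found in 39.2% (37.3 to 41.1) of naive and 1.57% (0.837 to 2.66) of day 1 cells. For Jun the shares were 74.7% (73.02 to 76.4) and 26.02% (23.1 to 29.2), for Egr1 29.5% (27.8 to 31.3) and 1.93% (1.11 to 3.11), for Dusp1 31.5% (29.8 to 33.4) and 2.29% (1.38 to 3.55), and for Klf2 45.4% (43.4 to 47.3) and 18.3% (15.7 to 21.1). Without thinning the shares were 44.97% and 2.71% for Fos and 80.2% and 38.9% for Jun. Mbp, a myelin gene of oligodendrocytes that microglia should lack, went the other way, with 13.8% (12.5 to 15.2) in naive and 20.8% (18.1 to 23.8) on day 1. Of the 26 genes in the AP-1 and EGR, NR4A and KLF lists, the median naive cell held UMIs of 6 and the median day 1 cell of 3. At least 3 of them were found in 93.2% (92.2 to 94.1) of naive and 63.98% (60.6 to 67.2) of day 1 cells. Cells near this limit, with exactly 2 or 3 of the genes, made up 4.90% and 8.77% of naive cells and 21.3% and 23.4% of day 1 cells. The AP-1 genes together gave a median of 5 UMIs per thinned cell in naive (10th to 90th percentile 1 to 18) and of 1 on day 1 (0 to 4).

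**Figure D2:**
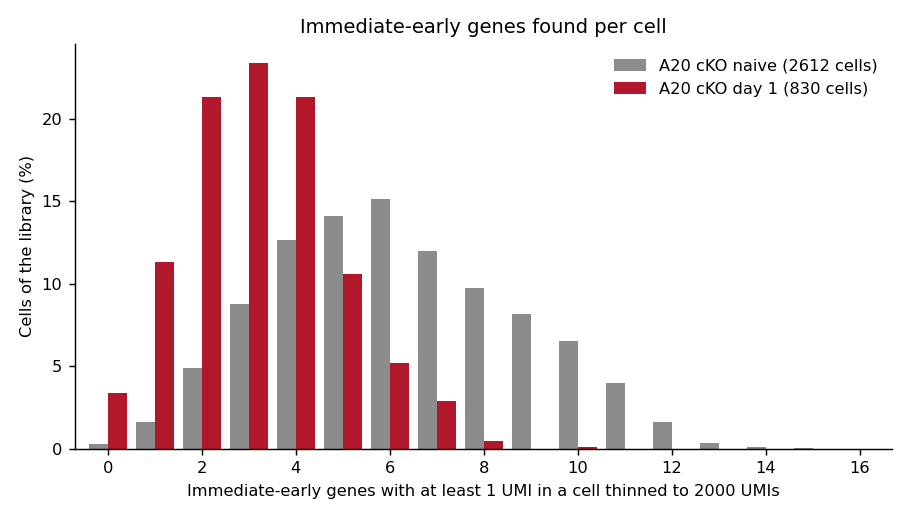
Bars give the share of cells of each library, in percent, by the number of immediate-early genes (of 26) with at least 1 UMI after thinning every cell to 2000 UMIs. The naive cells (grey) centre on a median of 6 genes and reach 15, and the day 1 cells (red) centre on 3 and reach 10.

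Set beside the other libraries, the low level of these genes was shared by A20 cKO day 2 and not by day 3. Fos had 21.1 CPM in A20 cKO day 2 and 504 on day 3, against 508 in the naive library. Jun had 184 and 1001 CPM, and Klf2 143 and 402. All 3 comparisons use the same A20 cKO naive library, so they are not independent. In the controls the order of naive and day 1 was the opposite. Fos had 20.4 CPM in control naive and 4105 on control day 1 (log2 ratio 7.63), Jun had 338 and 5124, and Klf2 had 64.8 and 3245. For the AP-1 list the median was 3.05 in control day 1 against control naive, and −1.39 and −0.17 in A20 cKO days 2 and 3 against A20 cKO naive. Of the 9 AP-1 genes 7 were at least 1.5-fold higher and 0 lower on control day 1, where 10.6% of all 8866 genes tested were higher and 21.4% lower. At a fold of 2 these background shares were 3.82% higher and 7.25% lower. For A20 cKO day 2 against naive, 2.86% of genes were 2-fold higher, 2.65% 2-fold lower and 10.3% 1.5-fold lower, and for day 3 9.33% were 1.5-fold lower. The difference between the genotypes was not tested, because each group had 1 library.

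**Figure D3:**
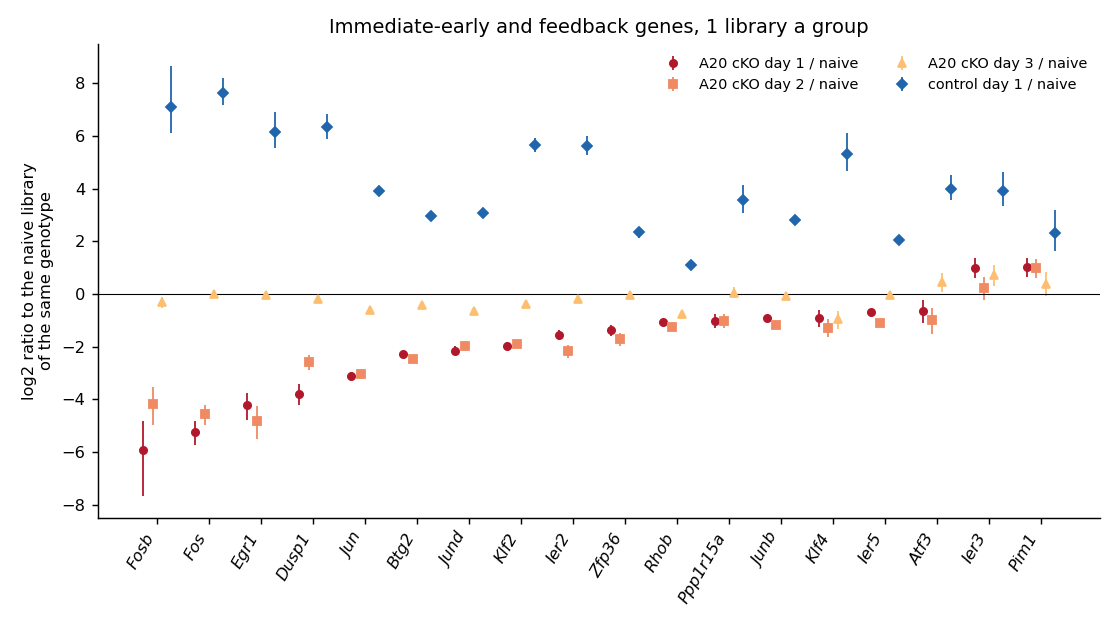
For 18 immediate-early and feedback genes the log2 ratio to the naive library of the same genotype is plotted with its 95% counting interval, for A20 cKO days 1, 2 and 3 and for control day 1. A20 cKO days 1 and 2 lie below 0 for all but Ier3 and Pim1, while control day 1 lies above 0 for all 18 genes.

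On the other side, chemokine genes led the genes that were higher on day 1. Of 13 measured members of the list of CC and CXC chemokines 5 were at least 1.5-fold higher and 2 lower, with a median log2 ratio of 0.48. The list also holds Ccrl2, a receptor gene, at a log2 ratio of −0.35. Ccl12 (ENSMUSG00000035352, chromosome 11, 82101845 to 82103400, plus strand), a mouse ligand of CCR2 that draws monocytes, had 1236 CPM (1213 to 1259) in naive and 5152 (5072 to 5234) on day 1, a log2 ratio of 2.06 (2.02 to 2.1). Its paralog Ccl2, which binds the same receptor, had 201 CPM (192 to 211) in naive and 562 (536 to 589) on day 1 (log2 ratio 1.48, 1.39 to 1.58). Ccl7, another CCR2 ligand, had 40.5 CPM in naive and 66.4 on day 1 (0.72). The CCR2 ligands thus all stood higher on day 1, whereas Ccr2 itself had 1.91 CPM in naive and 2.31 on day 1. Of other CC chemokines Ccl4 had 209 CPM in naive and 425 on day 1 (1.02) and Ccl3 had 139.8 CPM in naive and 248 on day 1 (0.83), of which 28.0% of the day 1 UMIs lay in 1 barcode. Without the shared barcodes the ratio of Ccl3 was 0.37, while that of Ccl4 was 0.92, of Ccl2 1.42 and of Ccl12 2.02. Ccl5, a T cell chemokine, had 1436 CPM in naive and 2001 on day 1, and the interferon-induced Cxcl10 had 253 CPM in naive and 353 on day 1. Their ratios of 0.48 and 0.48 became 0.27 and 0.22 without the shared barcodes, and the median of the list became 0.25. Cxcl13, a B cell attractant, was lower with 536 CPM in naive and 316 on day 1 (log2 ratio −0.76, −0.86 to −0.66), as was Cxcl9 with 15.8 CPM in naive and 8.59 on day 1.

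Ccl12 was also found in more of the cells. It had a UMI in 46.6% (44.7 to 48.6) of thinned naive cells and in 85.4% (82.8 to 87.8) of day 1 cells, and the median cell held 0 and 4 UMIs. The 10% of cells with the most Ccl12 held 70.03% of its UMIs in naive and 43.9% on day 1. Ccl2 was in 15.5% (14.1 to 16.95) and 33.3% (30.1 to 36.6) of cells, and Ccl4 in 13.5% (12.2 to 14.8) and 16.5% (14.04 to 19.2). Ccl2 and Ccl12 were found together. Among day 1 cells Ccl2 was in 13.2% (7.75 to 20.6) of the 121 cells without Ccl12 and in 51.7% (45.5 to 57.9) of the 261 cells with at least 10 Ccl12 UMIs. In naive these shares were 8.61% (7.19 to 10.2) of 1394 cells and 53.8% (45.7 to 61.9) of 156 cells. P2ry12 showed the reverse, being found in 93.4% (87.4 to 97.1) of the day 1 cells without Ccl12 and in 77.01% (71.4 to 81.97) of those with at least 10 UMIs. In control day 1 Ccl12 reached 3406 CPM against 294 in control naive, so it was higher on day 1 in both genotypes.

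Cytokine genes showed no common direction. Of 10 measured members 3 were at least 1.5-fold higher and 1 lower, with a median of 0.26. Il1rn, which encodes the interleukin-1 receptor antagonist, had 5.94 CPM in naive and 46.6 on day 1, but 1 shared barcode held 75.2% of the day 1 UMIs, and without shared barcodes its log2 ratio of 2.96 became 1.04. Il12b, a subunit of interleukin-12 and interleukin-23, had 23.4 CPM in naive and 38.96 on day 1 with a ratio of 0.74, or 0.29 without them. Tnf had 54.2 CPM in naive and 65.7 on day 1 (log2 ratio 0.28, 0.034 to 0.52), Il1a had 66.4 CPM in naive and 91.8 on day 1 and Il1b had 12.3 CPM in naive and 14.5 on day 1. Il6 was lower with 26.6 CPM in naive and 15.5 on day 1 (−0.76, −1.26 to −0.32). Csf1, the ligand of the receptor on which microglia depend, had 15.9 CPM in naive and 25.8 on day 1.

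Genes of ribosome biogenesis and growth moved together. Of 29 measured members 19 were at least 1.5-fold higher on day 1, 7 of them at least 2-fold, and 0 were lower. The median log2 ratio was 0.70, and the counting interval lay above 0 for 27 of the 29. Nop58 and Nop56, core proteins of box C/D ribonucleoproteins that guide the methylation of ribosomal RNA, had 54.6 CPM in naive and 119 on day 1 and 153 CPM in naive and 281 on day 1, respectively. Ncl, the nucleolar protein nucleolin, had 309 CPM in naive and 518 on day 1 (log2 ratio 0.75, 0.66 to 0.84). Mybbp1a and Gnl3, also nucleolar, had 48.4 CPM in naive and 103 on day 1 and 61.1 CPM in naive and 128 on day 1. In metabolism that feeds growth, Srm, which makes spermidine, had 31.2 CPM in naive and 70.0 on day 1, Shmt2, the mitochondrial serine hydroxymethyltransferase, had 13.1 CPM in naive and 35.3 on day 1 and Nme1, a nucleoside diphosphate kinase, had 64.6 CPM in naive and 141 on day 1. These 3 were between 2.19-fold and 2.69-fold higher. Eif5a, a translation factor, had 275 CPM in naive and 484 on day 1 and Ran, the GTPase of nuclear transport, had 159.8 CPM in naive and 294 on day 1. Outside the list, 3 of the 15 highest abundant genes have roles in ribosome assembly or in the supply of amino acids to translation: Nhp2, a protein of box H/ACA ribonucleoproteins, with 35.1 CPM in naive and 78.9 on day 1, Slc7a5, a transporter of large neutral amino acids, with 30.2 CPM in naive and 70.3 on day 1, and Eef1e1, a component of the aminoacyl-tRNA synthetase complex, with 32.9 CPM in naive and 70.7 on day 1. AY036118, also among the 15, had 99.1 CPM in naive and 249.6 on day 1. It is a transcript that overlaps ribosomal RNA sequence, as do Gm42418 (372 CPM in naive and 958 on day 1) and Gm26917 (799 CPM in naive and 2382 on day 1), which were chosen after their values were seen, and what their UMIs count is uncertain. Dkc1 and Mthfd2 no longer passed 1.5-fold when shared barcodes were left out, at 0.57 and 0.56. The list was higher in control day 1 too (median 1.07), and in A20 cKO the median was 0.43 on day 2 and 0.18 on day 3.

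Myc, the transcription factor that is known to drive many of these genes and that the study links to an early phase of division, had 54.8 CPM (50.1 to 59.9) in naive and 85.5 (75.4 to 96.6) on day 1 (log2 ratio 0.64, 0.42 to 0.86). It was found in 9.76% (8.65 to 10.97) of naive and 14.2% (11.9 to 16.8) of day 1 cells. In A20 cKO its level was 41.5 CPM on day 2 and 38.6 on day 3, both below the naive library. In the control libraries it had 31.5 CPM in naive and 96.5 on day 1. By qRT-PCR of sorted microglia, the study reports that the knockout abolished the rise of Myc on the day after nerve injury. The higher Myc level given here for A20 cKO is a count of UMIs in pooled libraries, which is another measure. The reason for the difference was not tested. Of the network of Myc, Mycl was lower with 35.1 CPM in naive and 11.2 on day 1 (log2 ratio −1.63, −2.20 to −1.13), whereas Mnt, Mga and Mxi1, which compete with MYC for its partner MAX, differed by −0.18, −0.0080 and −0.42 log2.

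The promoter of Nme1 is shown because it is among the 15 highest genes within the limit of 50 CPM and carries the E-box CACGTG, to which MYC and other factors bind. Of the 2 RefSeq windows for Nme1, the one with the match is chr11:93968273-93968522, minus strand, with the E-box in capitals.
Nme1: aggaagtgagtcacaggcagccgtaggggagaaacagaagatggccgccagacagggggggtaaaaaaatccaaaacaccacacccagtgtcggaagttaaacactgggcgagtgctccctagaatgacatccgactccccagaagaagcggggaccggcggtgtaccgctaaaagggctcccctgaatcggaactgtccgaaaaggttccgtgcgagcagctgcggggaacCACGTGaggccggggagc
The match began 18 bases before the start. CACGTG was present in 6.02% of all windows and in 10 of 37 windows of the ribosome biogenesis list (27.03%), namely those of Eif4a1, Eif5a, Hspd1, Ldha, Nme1, Nop2 and Ran. It was also in 10 of 45 windows of the immediate-early and feedback genes (22.2%), whose levels were mostly lower, so the letters alone did not separate the 2 directions.

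Genes of DNA replication were higher on day 1. Of 27 measured members 16 were at least 1.5-fold higher, 9 of them at least 2-fold, and 0 were lower, with a median log2 ratio of 0.77. Of the MCM helicase that opens the double strand, Mcm6 had 19.3 CPM in naive and 41.9 on day 1 (log2 ratio 1.12, 0.78 to 1.46), Mcm2 had 10.1 CPM in naive and 27.4 on day 1 and Mcm5 had 12 CPM in naive and 23.4 on day 1. Cdt1, which loads the helicase onto origins, had 7.40 CPM in naive and 15.2 on day 1, and Gins2, which activates it, had 8.41 CPM in naive and 19.8 on day 1. The polymerase gene Pola1 had 17.6 CPM in naive and 34.7 on day 1, the primase gene Prim1 10.5 CPM in naive and 23.8 on day 1 and the ligase gene Lig1 25.7 CPM in naive and 43.9 on day 1. Hells, a chromatin remodeller of replicating cells, had 13.01 CPM in naive and 37.6 on day 1 (1.53, 1.15 to 1.92), and Dnmt1, which copies DNA methylation to the new strand, had 25.8 CPM in naive and 48.5 on day 1. Topbp1, a replication checkpoint gene, had 34.6 CPM in naive and 79.2 on day 1. By contrast the clamp gene Pcna had 55.6 CPM in naive and 57.8 on day 1, and Rrm2, a ribonucleotide reductase subunit, had 12.2 CPM in naive and 11.6 on day 1. At least 3 replication genes were found in 8.58% (7.53 to 9.72) of thinned naive cells and 19.04% (16.4 to 21.9) of day 1 cells. After removal of cells with at least 3 replication or 3 mitotic genes, which left 444 day 1 and 1721 naive cells, the median of the list was −0.070. The cells were removed by genes of this same list, so this value cannot show in which cells the difference lay. Without the shared barcodes Fen1 fell short of 1.5-fold, with 0.55 in place of 0.60.

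Mitotic genes did not follow. Of 28 measured members 2 were at least 1.5-fold higher and 1 was lower, and the median log2 ratio was 0.17, or −0.34 without the shared barcodes. Mki67, the proliferation marker, had 51.1 CPM (46.5 to 56.04) in naive and 64.7 (55.98 to 74.4) on day 1, with a UMI in 3.83% (3.13 to 4.64) and 3.98% (2.75 to 5.54) of cells. Its ratio of 0.34 turned to −0.40 without the shared barcodes, so no direction is given for it. Cdk1, the mitotic kinase, had 12.6 CPM in naive and 13.5 on day 1 (log2 ratio 0.12, −0.44 to 0.64), and its ratio turned likewise, to −0.44, as did those of Birc5 (0.17 to −0.31) and Nusap1 (0.17 to −0.50). Cks1b, counted as higher at 0.62, was at 0.42 without them. At least 3 mitotic genes were found in 22.3% (20.7 to 23.97) of naive and 22.8% (19.96 to 25.8) of day 1 cells. On day 2 the A20 cKO library had 269 CPM of Mki67 and 41.2 of Cdk1, and the median of the mitotic list against naive was 1.93. Of the genes that time the entry into S phase, E2f1 had 8.41 CPM in naive and 20.1 on day 1, Ccnd2 had 9.31 CPM in naive and 21.1 on day 1, Cdk2 had 14.6 CPM in naive and 28.7 on day 1 and Cdk6 had 57.6 CPM in naive and 94.1 on day 1, while Cdkn1b, which encodes the inhibitor p27, was lower with 102 CPM in naive and 62.7 on day 1 (log2 ratio −0.69, −0.93 to −0.47). These were 4 of the 5 measured members of the G1 list that were at least 1.5-fold higher and the only 1 of 16 that was lower. The remaining higher member was Rbl1, at a log2 ratio of 0.71. Of the 16 members 9 lay above 0 and 7 below, with a median of 0.35.

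The promoters of Mcm6 and Hells are shown because E2F factors are known to switch on replication genes through sites such as TTTCCCGC and TTTGGCGC, here in capitals on either strand. The windows are chr1:128359706-128359955, minus strand and chr19:38930740-38930989, plus strand, respectively.
Mcm6: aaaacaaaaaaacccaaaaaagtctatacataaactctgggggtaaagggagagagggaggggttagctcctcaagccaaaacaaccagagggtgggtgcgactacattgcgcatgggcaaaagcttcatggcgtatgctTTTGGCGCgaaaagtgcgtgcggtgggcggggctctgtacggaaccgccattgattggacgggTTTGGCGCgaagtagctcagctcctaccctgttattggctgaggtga
Hells: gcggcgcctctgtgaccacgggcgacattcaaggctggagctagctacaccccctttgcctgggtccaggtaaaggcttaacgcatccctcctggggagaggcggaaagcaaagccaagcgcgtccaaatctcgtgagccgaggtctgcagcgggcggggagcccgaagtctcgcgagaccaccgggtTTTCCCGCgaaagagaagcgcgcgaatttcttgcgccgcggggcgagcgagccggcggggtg
Mcm6 held 2 matches, which began 110 and 47 bases before the start, and Hells held 1, which began 62 bases before it. At least 1 of these 2 runs of letters was in 1.30% of all windows, in 6 of 35 windows of the replication list (17.1%), in 3 of 37 of the ribosome biogenesis list (8.11%) and in 1 of 45 of the immediate-early and feedback genes (2.22%). The 6 replication genes were Cdc6, Hells, Mcm5, Mcm6, Mcm7 and Pola1.

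Part of the homeostatic programme of microglia was lower on day 1. Of 30 measured members 7 were at least 1.5-fold lower, 4 of them at least 2-fold, and 0 were higher, with a median log2 ratio of −0.29. The receptor gene P2ry12, through which microglia sense nucleotides from injured cells, had 2755 CPM (2721 to 2789.9) in naive and 1414 (1372 to 1457) on day 1 (log2 ratio −0.96, −1.01 to −0.92). Gpr34, a lysophospholipid receptor gene, had 1094 CPM in naive and 561 on day 1 (−0.96), and Slc2a5, a fructose transporter gene, had 151 CPM in naive and 71.7 on day 1. Il7r, the interleukin-7 receptor gene, had 96.8 CPM in naive and 38.6 on day 1 and Crybb1, a crystallin gene, had 281 CPM in naive and 134 on day 1. Rhob, given above with the early response genes, is also on this list and is counted among its lower members. Other identity genes were close to their naive level. Tmem119 differed by −0.27 log2, Csf1r by −0.27, Cx3cr1 by 0.090 and Fcrls by 0.22. P2ry12 had a UMI in 94.3% (93.3 to 95.1) of naive and 84.8% (82.2 to 87.2) of day 1 cells, and Gpr34 in 79.1% (77.4 to 80.6) and 57.6% (54.1 to 60.98). On days 2 and 3 P2ry12 had 908 and 845 CPM in A20 cKO, and Fcrls had 116 and 113. P2ry12 was thus lower on each day than in the naive library, whereas Fcrls was lower on days 2 and 3 and not on day 1. In the controls P2ry12 had 4026 CPM in naive and 2680.1 on day 1.

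The list of disease-associated microglia, a state seen in neurodegeneration, had a median of −0.023. Of its 23 measured members 4 were at least 1.5-fold higher and 1 was lower. Apoe, the lipid carrier, had 854 CPM in naive and 1333 on day 1, Lpl, lipoprotein lipase, had 21.6 CPM in naive and 46.9 on day 1 and Cst7, a cystatin, had 43.3 CPM in naive and 71.7 on day 1, with Csf1 as the fourth. Apoe (0.56) and Cst7 (0.57) did not pass 1.5-fold without the shared barcodes. Cd9, a tetraspanin gene, had 1608 CPM in naive and 961 on day 1. Trem2 and its adaptor Tyrobp had 1414 CPM in naive and 1018 on day 1 and 2127 CPM in naive and 2109 on day 1, respectively. Receptors of innate recognition were mostly level (median 0.085), and 4 of 28 were at least 1.5-fold higher with 0 lower. C5ar1, the receptor for complement C5a, had 107 CPM (100.2 to 114) in naive and 234 (217 to 252) on day 1 and was found in 17.4% (15.9 to 18.9) and 35.1% (31.8 to 38.4) of cells. Cd244, a receptor of the SLAM family, had 33.4 CPM (29.7 to 37.4) in naive and 104 (92.5 to 116) on day 1 and was found in 5.51% (4.67 to 6.46) and 16.02% (13.6 to 18.7). Fcgr4, an IgG receptor gene, had 38.1 CPM in naive and 59.8 on day 1, and Tlr1 had 28.9 CPM in naive and 46.2 on day 1. The complement gene C1qb had 8320.0 CPM in naive and 8866 on day 1.

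The NF-kB pathway, in which A20 acts, was level. Of 22 measured members 1 was at least 1.5-fold higher and 0 were lower, and the median log2 ratio was −0.00050. The exception was Nfkb2 with 18.8 CPM in naive and 29.7 on day 1, whose ratio of 0.66 was 0.57, short of 1.5-fold, without the shared barcodes. Tnfaip3 itself (ENSMUSG00000019850, chromosome 10, 19000910 to 19015657, minus strand) had 47.4 CPM (43.01 to 52.2) in naive and 42.3 (35.3 to 50.3) on day 1 (log2 ratio −0.16, −0.46 to 0.12), and its UMIs do not check the deletion, since the 3′ tag need not lie in the floxed part. Nfkbia, which encodes the inhibitor IkBα, had 567 CPM in naive and 393 on day 1 (−0.53). In the list of TNF receptor and death genes the median was −0.087, with 1 of 17 higher and 2 lower. The lower genes included Bcl2l11, which encodes the killer protein BIM, with 48.3 CPM in naive and 20.8 on day 1 (log2 ratio −1.21, −1.62 to −0.83). Bcl2a1d was higher with 118 CPM in naive and 180.0 on day 1, but its near-identical copies make the assignment of reads uncertain, and without the shared barcodes its ratio was 0.53, short of 1.5-fold.

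Interferon genes were close to their naive level on day 1. Of 42 measured type I interferon-stimulated genes 1 was at least 1.5-fold higher and 1 lower, with a median of 0.19. Most of the small differences were upward, with 35 genes above 0 and 7 below. The counting interval lay above 0 for 22 genes and below 0 for 2. Rsad2, the antiviral protein viperin, had 62.1 CPM in naive and 102 on day 1 and Isg15 had 182 CPM in naive and 249 on day 1. Rsad2, the gene counted as higher, did not pass 1.5-fold without the shared barcodes (0.53). Against the same naive library the median was 0.66 on day 2 and 0.86 on day 3, with 26 and 33 of 42 genes at least 1.5-fold higher, where 7.14% and 5.55% of all genes were. Bst2, which tethers virus particles, had 637 CPM in naive and 730.1 on day 1, and its level was 1200.1 CPM in A20 cKO day 2 and 1196 in A20 cKO day 3. MHC class I and peptide loading genes had a median of −0.039 on day 1, with 1 of 20 past 1.5-fold, and 0.47 on day 2. The class I light chain gene B2m had 8053 CPM in naive and 7927 on day 1. MHC class II genes had a median of −0.23, with 0 of 6 past 1.5-fold.

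Stress and metabolic lists had medians between 0.13 and 0.39. Heat shock genes had a median of 0.33 with 2 of 10 at least 1.5-fold higher, which were Hsph1 (20.7 CPM in naive and 37.97 on day 1) and the mitochondrial chaperone gene Hspd1 (137 CPM in naive and 213 on day 1). Glycolysis genes had a median of 0.13, with Ldha, lactate dehydrogenase A, at 166 CPM in naive and 259.5 on day 1. Of 15 genes of cholesterol synthesis and efflux 5 were at least 1.5-fold higher and 1 lower (median 0.39). The synthesis genes Fdps and Cyp51 had 20.5 CPM in naive and 30.7 on day 1 and 19.4 CPM in naive and 29.1 on day 1, respectively, and the exporter gene Abca1 was lower with 98.1 CPM in naive and 65.05 on day 1. Without the shared barcodes Fdps (0.39) and Abca1 (−0.54) no longer passed 1.5-fold.

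**Figure D4:**
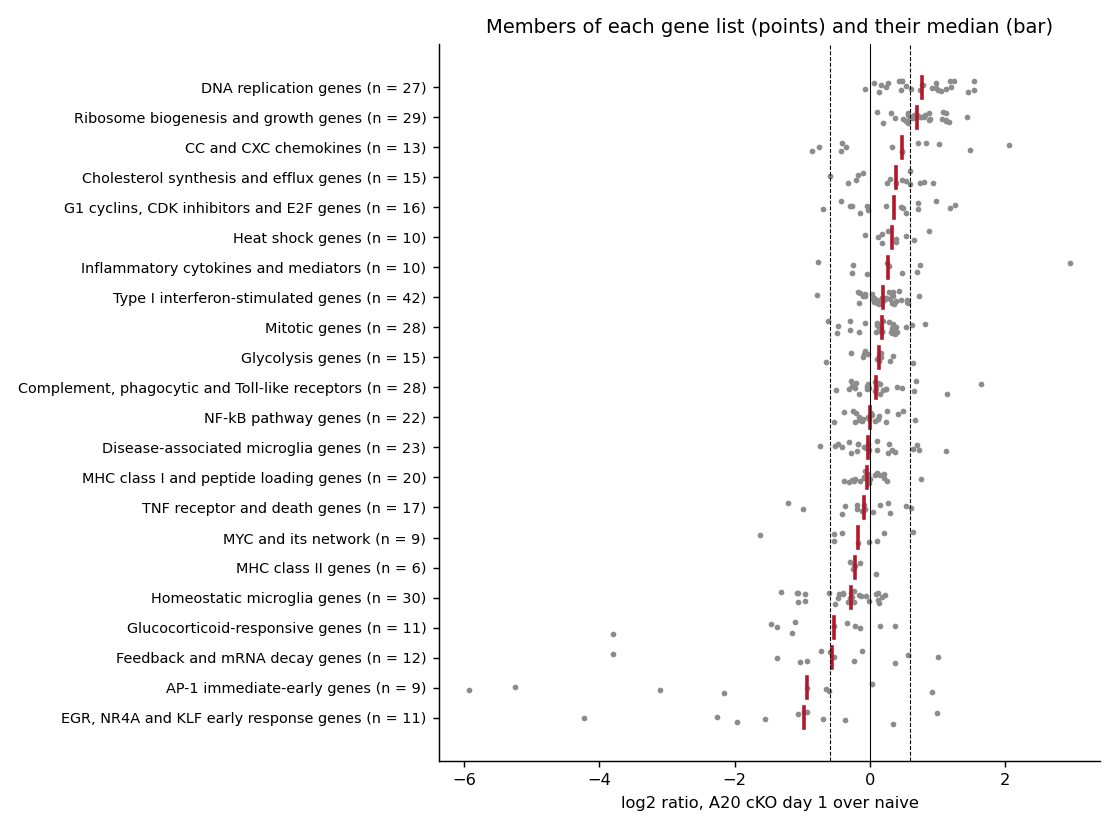
Each grey point is the log2 ratio of day 1 over naive for 1 measured member of a gene list, red bars mark the median of the list and dashed lines a fold of 1.5, with lists ordered by median. DNA replication and ribosome biogenesis stand at the top with medians of 0.77 and 0.70, and the AP-1 and EGR, NR4A and KLF lists at the bottom with −0.94 and −0.97.

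Of the other abundant genes, Naaa, which encodes a lysosomal amidase of lipid amides, had 57.7 CPM in naive and 128 on day 1 (log2 ratio 1.15, 0.95 to 1.34), and Wdr89 had 386 CPM in naive and 848 on day 1 (1.14, 1.06 to 1.21). Wdr89 was lower on day 1 in the controls, with 776 CPM in naive and 202 on day 1. Ttr, a choroid plexus gene and second on the list of higher genes, had 126 CPM in naive and 397 on day 1. The same barcode held 85.3% of its UMIs in naive and 90.5% on day 1, and without the shared barcodes its ratio of 1.66 became 1.09.

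**Figure D5:**
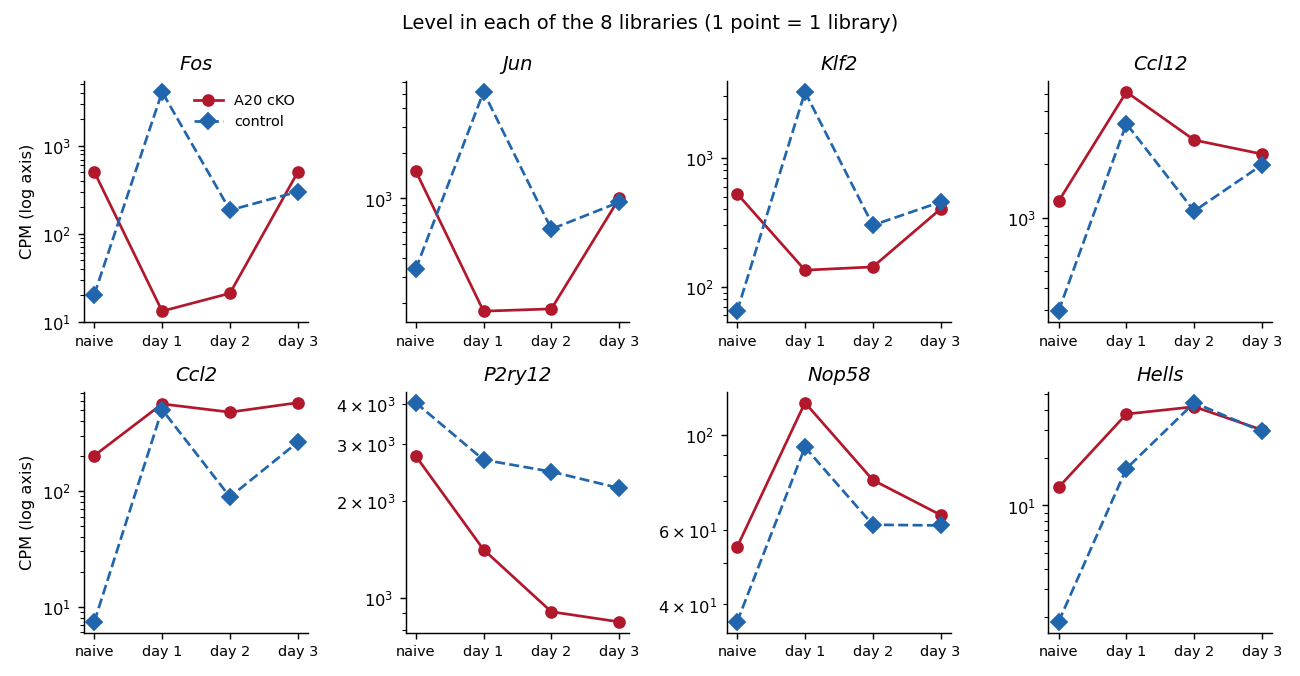
The level of 8 genes in CPM, on log axes that differ between panels, is plotted for the naive library and days 1, 2 and 3 of A20 cKO (red) and control (blue), with 1 point per library and no error bars. Fos, Jun and Klf2 drop from naive to day 1 in A20 cKO and climb in control, while Ccl12, Ccl2, Nop58 and Hells are higher on day 1 than in naive in both.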

How the data were processed

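YFP+ cells of lumbar cords were sequenced in 8 pooled libraries, 4 per genotype, with 1 library per group. The deposited values are raw, whole-number UMI counts by gene and barcode, which the authors had limited to barcodes called as cells. The submitters' processing notes name Cell Ranger 2.1.1 and the build mm10. The annotation release is not given in the sources used here. The kit is the 3′ v3.1 in the labels and the 3′ v3 in the methods. The integration step of the study was not used, since it changes expression values. Of 27998 gene identifiers 27645 (98.7%) matched GENCODE M21 (GRCm38), from which coordinates are given. Where a listed symbol had several identifiers (Itgam only), the one with more UMIs was used.

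Counts of kept barcodes were summed per library, 0.5 UMIs were added for ratios, and genes whose 2 sums together reached 100 UMIs were compared. The sums held 3028418 UMIs on day 1 and 8919100 in naive, so 3 UMIs, the limit that a count of 0 allows, correspond to 0.991 and 0.336 CPM. No doublet caller was run, so barcodes that held more than 1 cell were not looked for. Per the methods the sort gate excluded doublets, but the sort came before cells received their barcodes. Shares of cells were taken after thinning to 2000 UMIs, and differences of shares carry Newcombe intervals. All intervals are at 95% and cover counting error only.

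Named genes were the 15 highest and 15 lowest ratios with a mean of at least 50 CPM, leaving out mitochondrial, ribosomal-protein, Xist, Y-linked, predicted and Rik genes. To these were added Tnfaip3, Myc, Mki67, Cdk1, P2ry12, Tmem119, Csf1r and Fcrls, and from each of 22 gene lists the members past 1.5-fold with a mean of at least 20 CPM and up to 3 members nearest the median. Some genes that this rule names are not reported here. Other genes are named as list members or were chosen after their values were seen. The members and lists were chosen with earlier results of these data known. Lists are described by counts and medians beside those of all genes. Alternatives varied the scaling, UMI minimum, cell filter, thinning and the cells included. The interval code was tested on simulated data. Promoters are RefSeq windows on GRCm38.p6. Python 3.11.15 with numpy 2.4.6, scipy 1.17.1, pandas 2.3.3, statsmodels 0.14.6 and matplotlib 3.10.9 was used.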

Additional observations from a re-analysis of the deposited data

Results flagged for a closer look

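Day 1 and naive differed in opposite directions in the 2 genotypes, at least 2-fold each way, for 18 of the 163 named genes. Many named genes were chosen for their A20 cKO ratios, and the share of all genes with this split was not computed. Of all tested genes 1.56% were 2-fold higher and 1.39% 2-fold lower in A20 cKO, and 3.82% and 7.25% in the controls. The difference between the genotypes was not tested, because each group had 1 library. Control naive had 568 kept cells. The A20 cKO log2 ratio of day 1 over naive is given first for each gene and the control ratio after it. Among transcription factors these were −5.92 and 7.11 for Fosb, −5.25 and 7.63 for Fos, −4.23 and 6.14 for Egr1, −3.10 and 3.92 for Jun, −2.15 and 3.05 for Jund, −1.97 and 5.64 for Klf2 and −1.55 and 5.60 for Ier2. The medians of the lists were −0.94 and 3.05 for AP-1 and −0.97 and 4.34 for the EGR, NR4A and KLF list. The same split was found in genes that restrain signalling or growth, with −3.79 and 6.32 for Dusp1, −2.30 and 2.99 for Rgs1, −2.27 and 2.97 for Btg2, −1.46 and 1.87 for Tsc22d3, −1.38 and 2.34 for Zfp36 and −1.04 and 3.55 for Ppp1r15a. The other lower genes were Hist1h1c with −1.77 and 2.07, Rhob with −1.07 and 1.08 and Sgk1 with −1.11 and 1.15. In reverse, AY036118 had 1.33 and −2.27 and Wdr89 had 1.14 and −1.94. In level, the naive libraries differed, since Fos had 508 CPM in A20 cKO naive and 20.4 in control naive, and Dusp1 had 236 and 24.1.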

How the results depend on the processing

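No paired analysis was possible because each group had 1 library, and leaving out a replicate was not possible either. With 1 CPM added in place of 0.5 UMIs, median-ratio or TMM scaling, all deposited barcodes, the stricter cell filter, or without cells holding 3 markers of another type, the counts of genes and the list medians stayed within 1.5 times or within their counting intervals. The scalings shift all ratios by 0.039 (median-ratio) and 0.071 (TMM) log2. Of the named genes 107 passed 1.5-fold, and 1176 of their 1177 values under the alternatives kept their sign, leaving aside those limited to cells with fewer than 3 immediate-early genes. The exception was Fen1 at −0.14 without cells that held 3 mitotic or 3 replication genes.

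Counts of genes followed the UMI minimum. With at least 10 UMIs 562 genes were 2-fold higher and 452 lower, and 1486 and 1087 passed 1.5-fold. With at least 500 UMIs these were 41, 47, 182 and 165. Under the first minimum the medians were −0.79 for AP-1, −0.38 for feedback, 0.32 for chemokine and −0.82 for glucocorticoid-responsive genes. Under the second they were −3.10 for AP-1, −1.31 for EGR, NR4A and KLF, 0.13 for DNA replication, −0.023 for G1, −0.21 for cholesterol and −1.11 for glucocorticoid-responsive genes, since different members were measured. Thinning to 2000 UMIs gave −2.73 for AP-1 and 0.31 for chemokine genes, and the mean of cell CPM gave 0.34 for the latter. Without shared barcodes the chemokine median was 0.25 in place of 0.48, and the mitotic median −0.34 in place of 0.17. Of the shares of cells recomputed without shared barcodes, which was chosen after seeing the data, none moved beyond its interval.

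Without the cells that held 3 mitotic or 3 replication genes, 65 genes were 2-fold higher, 69 lower and 378 past 1.5-fold higher. The medians were −2.56 for AP-1, 0.55 for chemokine, −0.080 for cytokine, 0.38 for interferon-stimulated and −0.59 for mitotic genes. That of DNA replication reversed to −0.070, because cells were removed by these genes. Limiting both libraries to cells with fewer than 3 immediate-early genes left 127 and 92 cells. The medians were then −0.34 for feedback, 0.15 for heat shock, 0.039 for chemokine, −0.37 for cytokine, −0.17 for MHC class I, −0.18 for homeostatic, −0.067 for complement and Toll-like receptor, 0.44 for ribosome biogenesis, −0.28 for mitotic and −0.092 for glucocorticoid-responsive genes. The log2 ratio reversed to −0.54 for Ttr, −0.29 for Myc and Pola1, 0.33 for Ppp1r15a, −1.21 for Pim1 and Mcm4, 0.38 for Il6, −0.72 for Il12b, −0.47 for Rsad2, −0.0095 for Cst7, −0.12 for Fcgr4, −0.52 for Dkc1, −0.063 for Mthfd2, −0.56 for Mcm6, −0.11 for Fen1, −0.54 for Cks1b, −0.38 for Cyp51 and 0.15 for Abca1. The cause was not tested beyond the small number of cells.

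The share of cells with at least 3 immediate-early genes differed by −43.2 points when cells were thinned to 1000 UMIs and by −11.2 points without thinning. The share with none differed by 10.6 and 1.09 points, and that with at least 3 replication genes by 4.26 and 16.01 points. The share with at least 3 mitotic genes differed by 4.69 points without thinning and by 0.45 with it.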

Other observations

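Further genes outside the naming rule were chosen after their values were seen. Slc1a5, a glutamine transporter gene, had 5.72 CPM in naive and 36.7 on day 1 (log2 ratio 2.67, 2.19 to 3.19), and Slc39a14, a zinc and iron transporter gene, had 11.9 CPM in naive and 42.3 on day 1 (1.83, 1.45 to 2.22). Ppan and Gar1, further genes of ribosome assembly, had 34.98 CPM in naive and 73.6 on day 1 and 25.1 CPM in naive and 55.1 on day 1, respectively, and Ddx21, a nucleolar helicase gene, had 111 CPM in naive and 224 on day 1. Ranbp1, a regulator of the Ran GTPase, had 132 CPM in naive and 275 on day 1. Hyou1, a chaperone gene of the endoplasmic reticulum, had 22.9 CPM in naive and 50.2 on day 1, and Manf, which encodes a secreted protein of the same compartment, had 255 CPM in naive and 447 on day 1. Gas6, the ligand of the TAM receptors with which macrophages take up dying cells, had 90.7 CPM in naive and 187 on day 1 (log2 ratio 1.04, 0.88 to 1.20).

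Among lower genes, Hist4h4 had 65.9 CPM in naive and 3.63 on day 1 (log2 ratio −4.12, −5.19 to −3.33), Hist2h4 had 35.5 CPM in naive and 4.95 on day 1 and Hist1h1e had 243 CPM in naive and 106 on day 1. Histone genes went both ways, since Hist1h1b had 40.03 CPM in naive and 49.9 on day 1 (log2 ratio 0.32, 0.033 to 0.60). They have near-identical copies, so the assignment of their reads is uncertain. Rgs2, a relative of Rgs1, had 531 CPM in naive and 219 on day 1 (log2 ratio −1.28, −1.40 to −1.16). Adamts1, a secreted protease gene, had 70.6 CPM in naive and 19.5 on day 1. Sesn1, a stress-induced inhibitor of mTORC1, had 144 CPM in naive and 70.0 on day 1, Pdcd4, an inhibitor of translation initiation, had 68.3 CPM in naive and 32.7 on day 1 and Ccng2, an unconventional cyclin gene, had 176 CPM in naive and 90.8 on day 1. Glul, glutamine synthetase, had 1188 CPM in naive and 569.6 on day 1 (log2 ratio −1.06, −1.13 to −0.99).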
